A study of Mus musculus with 8 samples.

Results

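The genes described are 9 small leucine-rich proteoglycans, *Aspn*, *Dcn*, *Bgn*, *Lum*, *Fmod*, *Ogn*, *Omd*, *Prelp* and *Podn*, taken by symbol from a table of 18605 genes. All 9 were in the table and all 9 were among the 13470 genes with enough reads to be tested. The cells were C3H10T1/2, a mouse mesenchymal stem cell line of C3H embryo origin. They carried a lentiviral short hairpin RNA, either a non-targeting one (NC) or one against *Nap1l2* (KD-Nap1l2), in a vector that also held EGFP and puromycin resistance, and the hairpin used for these libraries was not given in the sources used here. Libraries named NC and KD-Nap1l2 came from cells at day 0, before induction, and those named NC-7d and KD-Nap1l2-7d from cells kept 7 days in osteogenic medium with dexamethasone, ascorbic acid and β-glycerol phosphate, 4 groups of 2 RNA sequencing libraries in all. Induced cells differed from day 0 cells in medium and in days of culture together, so their parts in a difference cannot be told apart. Nothing in the labels said that the 2 libraries of a group came from separate cultures, so p-values measured only the spread between these libraries. The genes were chosen by symbol, but the family was picked with measured expression values of these same libraries known, and which comparison drew attention to it was not recorded, so every comparison between the groups counts as used. Adjusted p-values over all genes are therefore given for the members as a description of the fit and not as independent support.

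Small leucine-rich proteoglycans are secreted proteins built of leucine-rich repeats, many of which carry chondroitin sulfate, dermatan sulfate or keratan sulfate chains. In connective tissue they bind collagen fibrils and set their diameter and spacing, and several bind growth factors of the TGF-β and BMP families. The family is sorted into classes by sequence and gene structure: decorin (*Dcn*), biglycan (*Bgn*) and asporin (*Aspn*) belong to class I, lumican (*Lum*), fibromodulin (*Fmod*), osteomodulin (*Omd*) and PRELP (*Prelp*) to class II, osteoglycin (*Ogn*) to class III and podocan (*Podn*) to class V. In bone, decorin and biglycan are abundant matrix proteins, and osteomodulin is known as a keratan sulfate proteoglycan of mineralized matrix.

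RefSeq promoter windows on GRCm38.p6 were at hand for 7 of the 9 genes, *Aspn*, *Bgn*, *Fmod*, *Ogn*, *Omd*, *Prelp* and *Podn*. The 250 bases before the start are shown for 4 of them, *Fmod*, *Podn* and *Aspn*, whose level was lower after induction in at least KD-Nap1l2 cells, and *Bgn*, whose level was the highest of the family. Capitals mark TATA, CCAAT and GC boxes found on either strand, and every sequence reads 5′ to 3′ along its gene. The windows lie at chr1:134037004-134037253 on the plus strand (*Fmod*), chr4:108031955-108032204 on the minus strand (*Podn*, the first of its 2 windows), chr13:49544193-49544442 on the plus strand (*Aspn*) and chrX:73483351-73483600 on the plus strand (*Bgn*).
Fmod: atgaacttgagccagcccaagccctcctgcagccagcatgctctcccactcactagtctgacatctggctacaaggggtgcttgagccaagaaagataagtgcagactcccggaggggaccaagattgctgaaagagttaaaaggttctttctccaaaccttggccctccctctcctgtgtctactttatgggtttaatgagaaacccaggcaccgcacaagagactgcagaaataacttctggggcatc
Podn: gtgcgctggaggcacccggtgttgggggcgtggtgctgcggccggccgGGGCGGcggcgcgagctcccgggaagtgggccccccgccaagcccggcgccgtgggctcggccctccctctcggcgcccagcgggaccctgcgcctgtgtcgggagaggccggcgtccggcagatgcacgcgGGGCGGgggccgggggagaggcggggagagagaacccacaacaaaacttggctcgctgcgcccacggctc
Aspn: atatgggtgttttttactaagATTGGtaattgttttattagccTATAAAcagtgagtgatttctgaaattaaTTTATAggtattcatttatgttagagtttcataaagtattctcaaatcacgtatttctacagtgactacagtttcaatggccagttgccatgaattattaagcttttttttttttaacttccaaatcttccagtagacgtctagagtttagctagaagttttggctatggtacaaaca
Bgn: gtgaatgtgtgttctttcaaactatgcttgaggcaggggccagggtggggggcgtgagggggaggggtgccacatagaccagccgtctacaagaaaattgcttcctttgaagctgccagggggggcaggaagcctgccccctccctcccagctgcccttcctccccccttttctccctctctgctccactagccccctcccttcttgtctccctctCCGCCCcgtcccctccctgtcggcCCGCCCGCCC
The windows differed in base composition, with 30% G and C in *Aspn*, 51.2% in *Fmod*, 64.4% in *Bgn* and 78.0% in *Podn*. The GC box was searched as GGGCGG, which 32.7% of all 32851 mouse windows of the same length held. *Bgn* held 3 GC boxes, of which 2 overlapped, and *Podn* held 2. The TATA box was searched as TATAAA, which 12.4% of all windows held. *Aspn* and *Ogn* held 2 each, and those of *Ogn* overlapped. The CCAAT box was searched by the letters of its name, which 33.8% of all windows held, and *Aspn* and *Prelp* had 1 each. The RUNX core was searched as TGTGGT, which 14% of all windows held, *Ogn* alone among the members. Bases just after the *Ogn* window were found in no GENCODE transcript of *Ogn*, unlike those of the other members' windows. The *Ogn* window was thus not shown to precede a transcript start. The AP-1 site was searched as TGANTCA, which 6.75% of all windows held, none of them a member's. *Fmod* held none of the 5 motifs. These are matches of letters in a short window and do not show that a factor binds there.

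The libraries held 17420284 to 19427359 gene counts. *Nap1l2* had 2 to 15 counts in each library, with 3 and 3 counts in NC, 2 and 7 in KD-Nap1l2, 15 and 5 in NC-7d, and 7 and 13 in KD-Nap1l2-7d, so a knockdown could not be seen in these counts and the groups are called by their labels. Among cell type markers, the 8 mesenchymal genes summed to 3130 to 6700 FPKM (fragments scaled to transcript length and library size) in every library, the 3 endothelial genes to at most 1.54 FPKM and the 3 epithelial genes to at most 2.25 FPKM, with *Epcam* at 0 in both KD-Nap1l2 and both NC-7d libraries. Most of the mesenchymal sum was *Vim* (1562 to 4538 FPKM) and *Ly6a* (761 to 3578 FPKM). *Thy1* was at 0.59 to 5.79 FPKM and *Nt5e*, which was not tested, at 0 to 0.05. Over induction *Thy1* was called lower in NC cells (log2 fold change −1.49 ± 0.34 SE, edgeR adjusted p = 0.0369) and in KD-Nap1l2 cells (−1.34 ± 0.30 SE, adjusted p = 0.0267). In neither kind of cell was another of the 7 tested mesenchymal genes called. The 7 osteoblast markers summed to 18.5 to 26.4 FPKM in NC, 17.6 to 20.2 in NC-7d, 18.6 to 29.7 in KD-Nap1l2 and 21.4 to 22.8 in KD-Nap1l2-7d, so the induced and the day 0 ranges overlapped. Only 4 of the 7 were tested. Averaged over both kinds of cell, *Dmp1* (−1.64 ± 0.46 SE, edgeR adjusted p = 0.034) and *Runx2* (−0.52 ± 0.10 SE, adjusted p = 0.00888) were called lower and none higher. *Dmp1* was called in neither kind of cell alone (edgeR adjusted p = 0.147 in both). *Runx2* was called lower in KD-Nap1l2 cells (adjusted p = 0.0334) but not in NC cells (0.0924). *Runx2* was not lower in FPKM, at 10.5 to 11.5 in NC and 13.2 to 14.4 in NC-7d. In KD-Nap1l2 it was at 15.2 to 15.6 FPKM, and in KD-Nap1l2-7d at 15.1 to 16. The 6 adipocyte markers summed to 14.1 to 18.5 FPKM in NC, 26.6 to 40 in KD-Nap1l2, 146 to 171 in NC-7d and 142 to 187 in KD-Nap1l2-7d. The higher sums after induction came almost wholly from *Fabp4*, a fatty acid binding protein gene. It was at 7.69 to 10.1 FPKM in NC, 11.7 to 25.1 in KD-Nap1l2, 139 to 165 in NC-7d and 138 to 181 in KD-Nap1l2-7d. Before induction *Lpl* also added to the higher sum of KD-Nap1l2, at 4.32 to 5.03 FPKM in NC and 9.84 to 11.97 in KD-Nap1l2. *Cebpa* was at 1.5 to 3.09 FPKM in NC and 2.91 to 4.29 in KD-Nap1l2. Neither difference passed (edgeR adjusted p = 0.164 for *Lpl* and 0.525 for *Cebpa*). Of the other 5 markers, *Cebpa* (log2 fold change −2.40 ± 0.42 SE, edgeR adjusted p = 0.0117) and *Lpl* (−1.54 ± 0.32 SE, adjusted p = 0.0205) fell over induction in KD-Nap1l2 cells, and *Adipoq*, *Plin1* and *Cidec* were at 0 to 0.83 FPKM in every library. Of the other markers, 4 chondrocyte genes summed to 62.3 to 120 FPKM, mostly *Sox9*, and 3 tenocyte genes to 6.6 to 13.7. The 3 myoblast genes summed to 1.22 to 3.28 FPKM and 4 leukocyte genes to 4.72 to 12.1. Before induction *Col2a1* was called higher in KD-Nap1l2 than in NC (2.56 ± 0.31 SE, edgeR adjusted p = 0.0478). Over induction *Sox9* (−0.67), *Col2a1* (−1.94) and *Tnmd* (−5.59) were called lower in KD-Nap1l2 cells and not called in NC cells. The part of these markers in the changes over induction described here was not tested. In bulk RNA, fewer cells of a type and less RNA per cell cannot be told apart. The SD of the log2 difference between the 2 libraries of a group, over 11280 genes, was 0.269 in KD-Nap1l2-7d, 0.332 in NC, 0.491 in NC-7d and 0.511 in KD-Nap1l2, and with 2 libraries against 2 an exact permutation test cannot go below a two-sided p of 0.333, so differences were taken from a fit across all genes (the quasi-likelihood test of edgeR, with p-values adjusted by Benjamini-Hochberg over 13470 genes).

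On the length-adjusted FPKM scale, *Bgn* was by far the most abundant member, with a mean of 3150 ± 350 FPKM (SD, n = 8 libraries, range 2839 to 3857). *Ogn* followed with a mean of 367 FPKM (274 to 598), *Prelp* with 175 FPKM (115 to 249), *Aspn* with 105 FPKM (57.9 to 142) and *Dcn* with 56.5 FPKM (10.3 to 130). *Lum* had a mean of 18.5 FPKM (0.19 to 60.8), *Omd* 10.2 FPKM (8.39 to 12.9), *Fmod* 4.15 FPKM (0.02 to 11.5) and *Podn* 2.14 FPKM (0.36 to 7.06). The ranges of *Bgn* and *Ogn* did not overlap, nor did those of *Ogn* and *Prelp*, while each later gene overlapped the next one in the order. The order was the same in the mean of the NC libraries alone. The 9 genes together made up 0.771% to 0.992% of all FPKM in a library, and *Bgn* 77% to 84.3% of the family's sum.

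**Figure D1:**
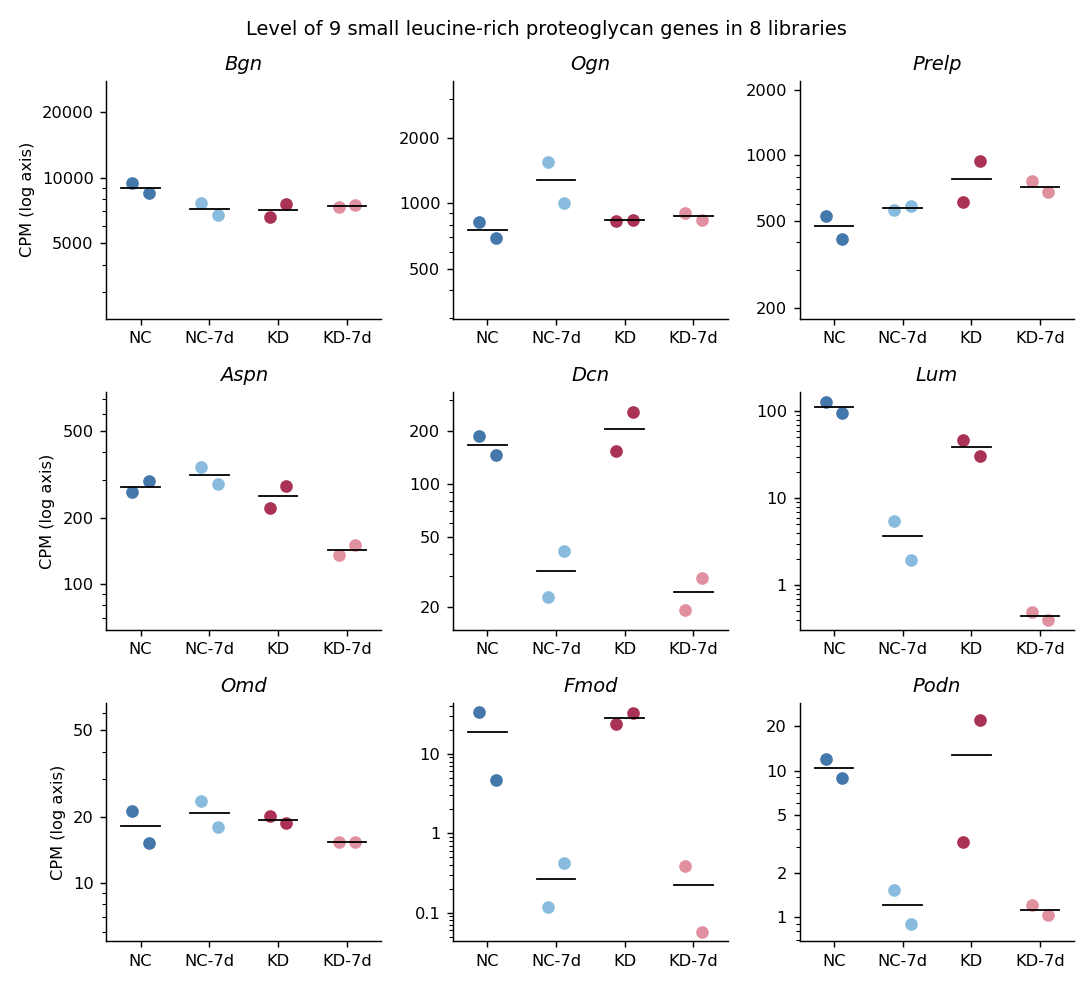
CPM (counts scaled to the library size by TMM) of the 9 genes in each of the 8 libraries on log axes, in order of mean FPKM; each point is 1 library, each line the mean of a group of 2, and KD stands for KD-Nap1l2. *Dcn*, *Lum*, *Fmod* and *Podn* were lower in all 4 induced libraries than in all 4 day 0 libraries, whereas *Bgn*, *Ogn*, *Omd* and *Prelp* differed by at most 2.27-fold between any 2 libraries.

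Osteogenic induction was first compared with day 0 in NC cells and in KD-Nap1l2 cells. *Dcn*, *Lum* and *Fmod* fell in both kinds of cell, *Podn* and *Aspn* fell in KD-Nap1l2 cells, and edgeR called no member higher. DESeq2 (adjusted p = 0.00634) and edgeR with no filter on low counts (adjusted p = 0.0468) called *Ogn* higher in NC cells. In NC cells 3 of the 9 members were called lower and none higher at an adjusted p under 0.05, where 8.21% of all genes tested were called, 3.38% lower and 4.83% higher. In KD-Nap1l2 cells 5 of the 9 were called lower and none higher, where 14.2% of all genes were called, 7.36% lower and 6.84% higher. The median log2 fold change of the 9 genes was −0.32 in NC cells and −0.82 in KD-Nap1l2 cells, beside 0.00 and −0.01 over all genes. The 2 libraries of NC-7d lay wholly below those of NC for 5 members and wholly above for 2, where 28.4% of all genes lay below and 29.4% above. The libraries of KD-Nap1l2-7d lay wholly below those of KD-Nap1l2 for 6 members and above for none, where 30.6% of all genes lay below and 30.8% above. Since the family was picked with these values known, nothing is read from these counts.

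**Figure D2:**
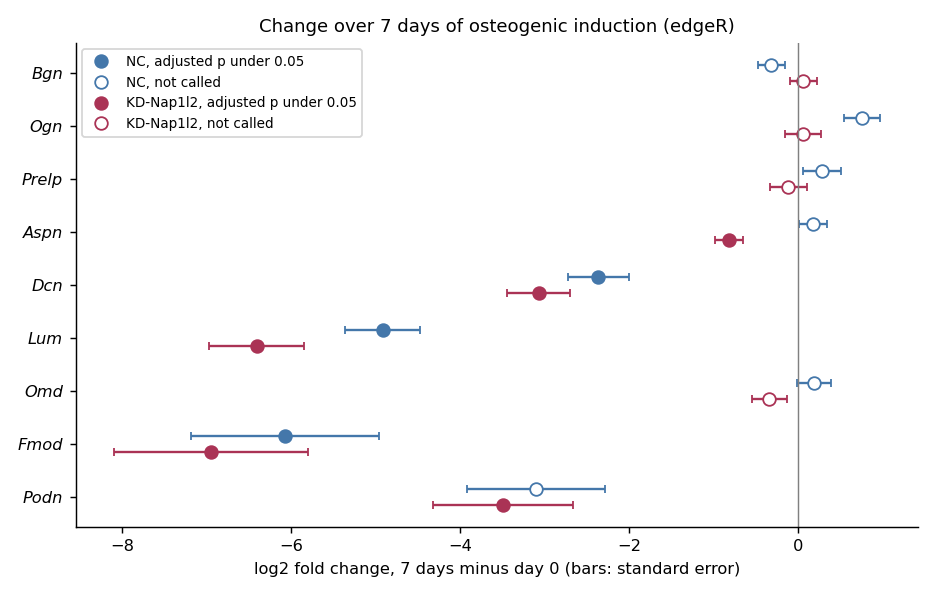
Log2 fold change over 7 days of induction for each of the 9 genes in NC cells (blue) and KD-Nap1l2 cells (red); bars are standard errors from edgeR, and filled points had an adjusted p under 0.05. *Dcn*, *Lum* and *Fmod* were called lower in both, from −2.37 to −6.95, *Podn* and *Aspn* in KD-Nap1l2 cells only by this threshold.

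Among the class I genes, *Dcn* encodes decorin, a dermatan or chondroitin sulfate proteoglycan that binds type I collagen and TGF-β. Its level was 186 and 146 CPM in the 2 NC libraries, 22.9 and 41.4 CPM in NC-7d, 154 and 255 CPM in KD-Nap1l2, and 19.3 and 29.4 CPM in KD-Nap1l2-7d. Every induced library lay below every day 0 library, in both kinds of cell. *Dcn* fell 5.16-fold in NC cells (log2 fold change −2.37 ± 0.36 SE, edgeR adjusted p = 0.00935) and 8.4-fold in KD-Nap1l2 cells (−3.07 ± 0.37 SE, edgeR adjusted p = 0.00316). The change in NC cells was −2.18 with an adjusted p of 0.0786 without NC replicate 1, and ranged from −2.86 to −2.0 over the 8 libraries left out in turn. Between the kinds of cell the decrease differed by −0.70 ± 0.49 SE (edgeR adjusted p = 0.809).

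*Bgn* encodes biglycan, the closest relative of decorin, and lies on chromosome X. Its level was 9458 and 8462 CPM in NC, 7619 and 6725 CPM in NC-7d, 6618 and 7598 CPM in KD-Nap1l2, and 7351 and 7457 CPM in KD-Nap1l2-7d. Both NC libraries lay above all the others, but the log2 fold change over induction was only −0.32 ± 0.16 SE in NC cells (edgeR adjusted p = 0.266) and 0.06 ± 0.16 SE in KD-Nap1l2 cells (edgeR adjusted p = 0.835). *Bgn* passed the threshold in neither comparison.

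*Aspn* encodes asporin, a class I member with a run of aspartate residues that is known to bind TGF-β and collagen. It measured 262 and 294 CPM in NC, 342 and 287 CPM in NC-7d, 223 and 282 CPM in KD-Nap1l2, and 136 and 150 CPM in KD-Nap1l2-7d. The 2 KD-Nap1l2-7d libraries lay below the other 6, and NC overlapped both NC-7d and KD-Nap1l2. In KD-Nap1l2 cells *Aspn* fell 1.77-fold over induction (−0.82 ± 0.17 SE, edgeR adjusted p = 0.0184), whereas in NC cells the value was 0.18 ± 0.16 SE (edgeR adjusted p = 0.554). The difference between the 2 inductions, tested directly, was −1.0 ± 0.23 SE with an unadjusted p of 0.00271 and an edgeR adjusted p of 0.439, so it did not pass over all genes, while DESeq2 gave it an adjusted p of 0.0232. The decrease in KD-Nap1l2 cells no longer passed without KD-Nap1l2 replicate 2 (−0.64, adjusted p = 0.0612), KD-Nap1l2-7d replicate 1 (−0.75, adjusted p = 0.146) or KD-Nap1l2-7d replicate 2 (−0.90, adjusted p = 0.0986).

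Among the class II genes, *Lum* encodes lumican, a keratan sulfate proteoglycan that binds collagen fibrils and is best known from the cornea. It measured 127 and 94.2 CPM in NC, 5.46 and 1.94 CPM in NC-7d, 47 and 30.3 CPM in KD-Nap1l2, and 0.494 and 0.4 CPM in KD-Nap1l2-7d. The groups stood apart from each other in all 4 comparisons, with NC highest and KD-Nap1l2-7d, which held 9 and 7 counts, lowest. *Lum* fell 30.2-fold in NC cells (−4.92 ± 0.44 SE, edgeR adjusted p = 0.00165) and 84.9-fold in KD-Nap1l2 cells (−6.41 ± 0.56 SE, edgeR adjusted p = 0.000879). From the summed counts, the ratio of day 0 to day 7 was 30.6 (95% exact interval 25.7 to 36.8) in NC cells and 86.7 (53.2 to 152) in KD-Nap1l2 cells, intervals that cover counting error only. Both calls held with each library left out in turn, with values from −5.83 (without NC-7d replicate 1) to −4.34 (without NC-7d replicate 2) in NC cells and from −6.69 to −6.06 in KD-Nap1l2 cells. The decreases differed by −1.49 ± 0.76 SE (edgeR adjusted p = 0.726).

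*Fmod* encodes fibromodulin, which binds collagen and takes part in fibril growth in tendon. Its estimated counts were 617 and 91 in NC, 2 and 8 in NC-7d, 445 and 579 in KD-Nap1l2, and 7 and 1 in KD-Nap1l2-7d. These correspond to 33.3 and 4.66 CPM in NC, 0.117 and 0.42 CPM in NC-7d, 23.9 and 33 CPM in KD-Nap1l2, and 0.384 and 0.0572 CPM in KD-Nap1l2-7d. The induced libraries were all near the limit of detection, where a count of 0 would still allow 0.158 to 0.176 CPM, and the 2 NC libraries lay on either side of both KD-Nap1l2 libraries. *Fmod* fell by the fit in NC cells (−6.07 ± 1.11 SE, edgeR adjusted p = 0.0181) and in KD-Nap1l2 cells (−6.95 ± 1.15 SE, edgeR adjusted p = 0.00948), and the summed counts gave ratios of day 0 to day 7 of 67.1 (95% exact interval 36.3 to 141) and 126 (63.8 to 293). These intervals cover counting error only and not the spread between libraries, such as the 617 and 91 counts of NC. In NC cells the call was lost without NC replicate 1 (−4.05, adjusted p = 0.0524), NC-7d replicate 1 (−5.47, adjusted p = 0.0862) or NC-7d replicate 2 (−7.25, adjusted p = 0.0562), and also with only the libraries compared in the fit (adjusted p = 0.0536). In KD-Nap1l2 cells it was lost without KD-Nap1l2-7d replicate 1 (−8.79, adjusted p = 0.0766) or replicate 2 (−6.19, adjusted p = 0.0889).

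*Prelp* encodes a proline- and arginine-rich repeat protein of connective tissue that binds heparan sulfate. It measured 531 and 416 CPM in NC, 564 and 584 CPM in NC-7d, 615 and 943 CPM in KD-Nap1l2, and 761 and 676 CPM in KD-Nap1l2-7d. The NC libraries were the lowest and KD-Nap1l2 replicate 2 the highest. The log2 fold change over induction was 0.28 ± 0.22 SE in NC cells (edgeR adjusted p = 0.478) and −0.12 ± 0.22 SE in KD-Nap1l2 cells (edgeR adjusted p = 0.758).

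*Omd*, which encodes osteomodulin, a gene associated with mature osteoblasts, measured 21.4 and 15.3 CPM in NC, 23.7 and 18.1 CPM in NC-7d, 20.2 and 18.8 CPM in KD-Nap1l2, and 15.4 and 15.3 CPM in KD-Nap1l2-7d. All 8 libraries lay within 15.3 to 23.7 CPM. The log2 fold change over induction was 0.19 ± 0.20 SE in NC cells (edgeR adjusted p = 0.623) and −0.34 ± 0.21 SE in KD-Nap1l2 cells (edgeR adjusted p = 0.292).

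The class III gene *Ogn* encodes osteoglycin, also called mimecan, a small keratan sulfate proteoglycan known from bone. It measured 822 and 694 CPM in NC, 1556 and 1002 CPM in NC-7d, 829 and 844 CPM in KD-Nap1l2, and 903 and 842 CPM in KD-Nap1l2-7d. The 2 NC-7d libraries were the highest of all, and they also differed most from each other. *Ogn* was the only member with a log2 fold change above 0.5 over induction in NC cells, 0.75 ± 0.21 SE, but it did not pass (edgeR adjusted p = 0.0726), while DESeq2 called it higher (adjusted p = 0.00634). Leaving out NC-7d replicate 1 gave 0.40, whereas leaving out NC-7d replicate 2 gave 1.04 (adjusted p = 0.0211). In KD-Nap1l2 cells the change was 0.06 ± 0.21 SE (edgeR adjusted p = 0.871).

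The class V gene *Podn* encodes podocan, a collagen-binding member of the family described in kidney and vessel wall. It measured 11.9 and 8.86 CPM in NC, 1.52 and 0.893 CPM in NC-7d, 3.27 and 22.1 CPM in KD-Nap1l2, and 1.21 and 1.03 CPM in KD-Nap1l2-7d. All induced libraries lay below all day 0 libraries, but the 2 KD-Nap1l2 libraries lay on either side of both NC libraries. *Podn* fell 11.3-fold in KD-Nap1l2 cells (−3.49 ± 0.82 SE, edgeR adjusted p = 0.0302), and in NC cells the value was −3.11 ± 0.82 SE (edgeR adjusted p = 0.0575). Without KD-Nap1l2 replicate 2 the change in KD-Nap1l2 cells was −1.54 (adjusted p = 0.0597), and the call was also lost without NC replicate 1 (adjusted p = 0.0543), NC replicate 2 (adjusted p = 0.0544), KD-Nap1l2-7d replicate 1 (adjusted p = 0.176) or KD-Nap1l2-7d replicate 2 (adjusted p = 0.174). In NC cells *Podn* was called lower without KD-Nap1l2 replicate 1 (adjusted p = 0.00302) or replicate 2 (adjusted p = 0.00361), and also by DESeq2 (9.48e-05), with library totals only (0.0449), with no filter on low counts (0.0239), with only the compared libraries (0.017) and on log2(FPKM + 0.1) (0.0465). In KD-Nap1l2 cells the call was lost in edgeR with only the compared libraries (adjusted p = 0.0591) and with the replicate number as a block (0.0539). It was also lost with limma on log2(FPKM + 1) (adjusted p = 0.0817). The difference between the inductions of the 2 kinds of cell was −0.39 ± 1.15 SE (edgeR adjusted p = 0.958).

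Averaged over both kinds of cell, *Dcn* (−2.72 ± 0.26 SE, edgeR adjusted p = 0.000498), *Lum* (−5.66 ± 0.36 SE, adjusted p = 9.63e-05), *Fmod* (−6.51 ± 0.80 SE, adjusted p = 0.00143) and *Podn* (−3.30 ± 0.58 SE, adjusted p = 0.00618) fell, 4 of the 9 members, where 25.5% of all genes were called, 12.7% lower and 12.8% higher. These 4 were also the members whose 4 induced libraries lay wholly below the 4 day 0 libraries, as did 12.3% of all genes. The other 5 members, *Aspn*, *Bgn*, *Ogn*, *Omd* and *Prelp*, overlapped, with values from −0.32 to 0.41, and edgeR called none of them. Limma called *Aspn* lower on average on log2(FPKM + 1) (−0.31, adjusted p = 0.0466) and on log2(FPKM + 0.1) (−0.32, adjusted p = 0.046). DESeq2 called *Ogn* higher on average (0.40, adjusted p = 0.0345). Whether the change over induction differed between KD-Nap1l2 and NC cells was tested for each member. None of the 9 differences passed edgeR's test, where 0% of all genes did. In edgeR 948 of 13470 genes, including 1 member, *Aspn*, had an unadjusted p under 0.05. DESeq2 called 100 of 12808 genes and 1 member, again *Aspn*. The difference was negative for 8 of the 9 members, with a median of −0.69 beside −0.02 over all genes. The signs of *Lum*, *Fmod* and *Podn* turned under some alternative settings. The family was also picked with these values known, so nothing is read from this count of signs.

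The libraries labelled KD-Nap1l2 were next compared with NC, before and after induction. No member passed edgeR's test in either comparison, where 0.0817% of all genes were called before induction (0.0594% lower, 0.0223% higher) and 0% after it. At an unadjusted edgeR p under 0.05 there were 2 members among 1852 of 13470 genes before induction, and 3 among 1057 after it. DESeq2 called 454 of 12808 genes before induction, 2 of them members (*Lum* and *Prelp*). After it DESeq2 called 82 of 12808 genes, 2 of them members (*Aspn* and *Lum*). Before induction, the log2 fold change of *Lum* was −1.52 ± 0.37 SE (edgeR adjusted p = 0.147) and that of *Prelp* 0.72 ± 0.22 SE (adjusted p = 0.218). The call on *Lum* was gained without NC-7d replicate 1 (adjusted p = 0.0373) or replicate 2 (adjusted p = 0.0375), and the call on *Prelp* without KD-Nap1l2 replicate 1 (1.0, adjusted p = 0.0394). After 7 days, *Lum* was at −3.01 ± 0.63 SE and *Aspn* at −1.14 ± 0.17 SE, both with an edgeR adjusted p of 0.443, and *Ogn* at −0.55 ± 0.21 SE (adjusted p = 0.578). For *Dcn* the values were 0.30 ± 0.34 SE before and −0.40 ± 0.35 SE after, and for *Bgn* −0.33 ± 0.16 SE before and 0.05 ± 0.16 SE after. The KD-Nap1l2 libraries lay wholly below NC for 2 members and above for 2 before induction, where 21.2% of all genes lay below and 22% above, and for 4 below and 1 above after it, where 21% of all genes lay on each side.

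**Figure D3:**
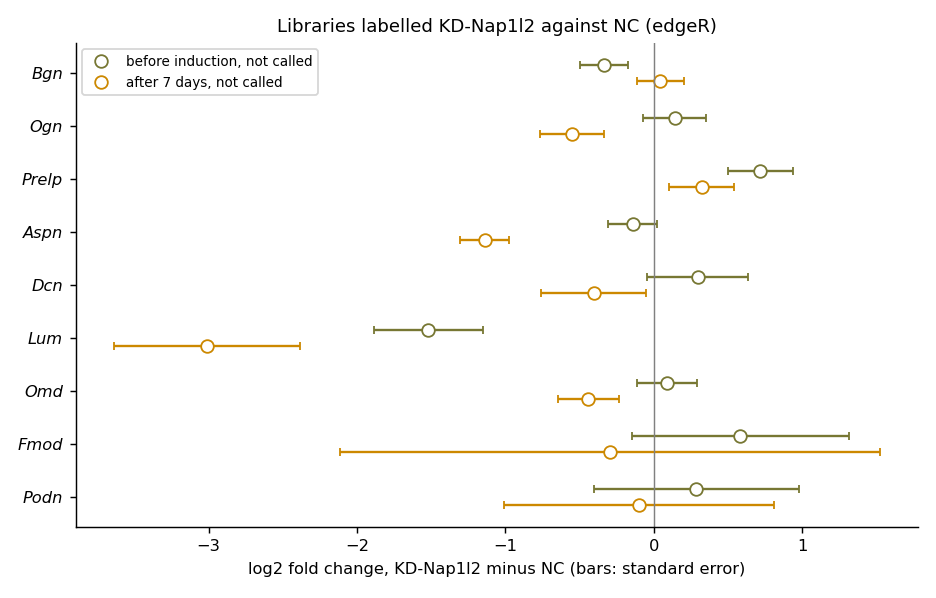
Log2 fold change of the libraries labelled KD-Nap1l2 against NC for each of the 9 genes, before induction (olive) and after 7 days (orange); bars are standard errors from edgeR. No point passed the adjusted threshold, and *Lum* had the most negative value at both times, −1.52 and −3.01.

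The FPKM of all 9 genes summed to 4618 and 4153 in NC, 3993 and 3566 in NC-7d, 3605 and 3851 in KD-Nap1l2, and 3685 and 3644 in KD-Nap1l2-7d. Without *Bgn*, the other 8 genes summed to 761 and 651 FPKM in NC, 920 and 727 FPKM in NC-7d, 749 and 853 FPKM in KD-Nap1l2, and 645 and 600 FPKM in KD-Nap1l2-7d. The NC-7d libraries overlapped the NC libraries in this sum, and the KD-Nap1l2-7d libraries lay below both KD-Nap1l2 libraries. Within the sum, *Dcn* took 98 and 78 FPKM in NC but 11.9 and 22.7 FPKM in NC-7d, and *Lum* 60.8 and 45.6 FPKM in NC but 2.58 and 0.96 FPKM in NC-7d.

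**Figure D4:**
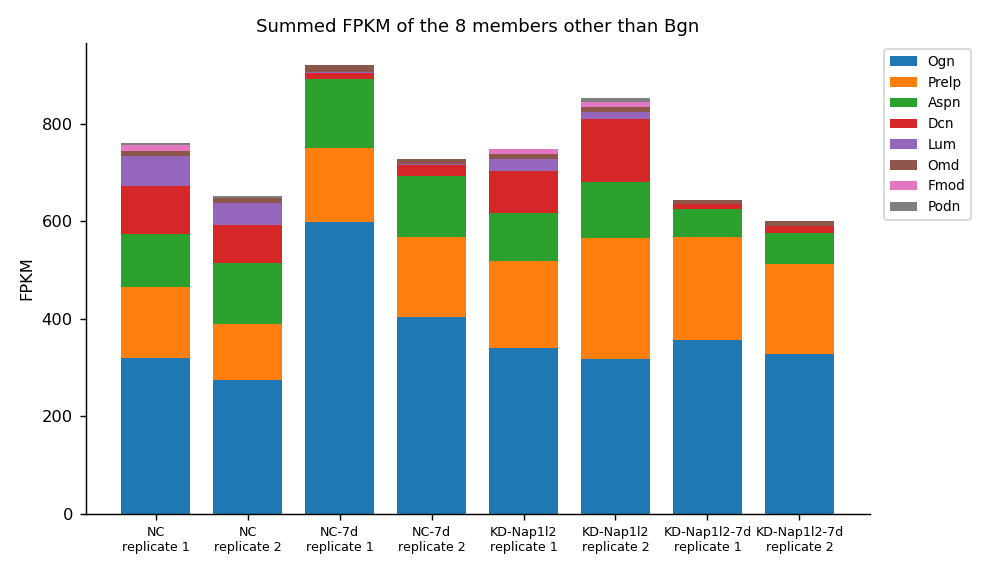
Summed FPKM of the 8 members other than *Bgn* in each of the 8 libraries, with 1 colour per gene. *Ogn*, *Prelp* and *Aspn* formed the bulk in every library, and the *Dcn* (red) and *Lum* (purple) parts were smaller in all 4 induced libraries than in the 4 day 0 libraries.

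Most family genes lie in 3 groups of neighbours on GRCm38.p6. *Dcn*, *Lum*, *Kera* and *Epyc* span 202.4 kb of chromosome 10 (97479500 to 97681908), *Ecm2*, *Aspn*, *Omd* and *Ogn* span 119.7 kb of chromosome 13 (49504810 to 49624501), and *Optc*, *Prelp* and *Fmod* span 151.1 kb of chromosome 1 (133897193 to 134048280). RefSeq lists no other protein-coding gene starting between the neighbours of any group. In the chromosome 10 group all 4 genes were called lower over induction in NC cells and 3 of 4 in KD-Nap1l2 cells, all but *Kera*, which had 6 and 6 counts in KD-Nap1l2. In the chromosome 13 group none of the 4 was called in NC cells and *Aspn* alone in KD-Nap1l2 cells. On chromosome 1, *Fmod* was called lower, whereas *Prelp*, 107.2 kb away, and *Optc* were not called. *Bgn* (chromosome X, 73483601 to 73495936) and *Podn* (chromosome 4, 108014793 to 108031954) stand away from these groups. Over all genes, 3.38% were called lower in NC cells and 7.36% in KD-Nap1l2 cells. Neighbours share their region, so they are not independent examples of a change. The family was also picked with these values known, so nothing is read from the counts of called neighbours.

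**Figure D5:**
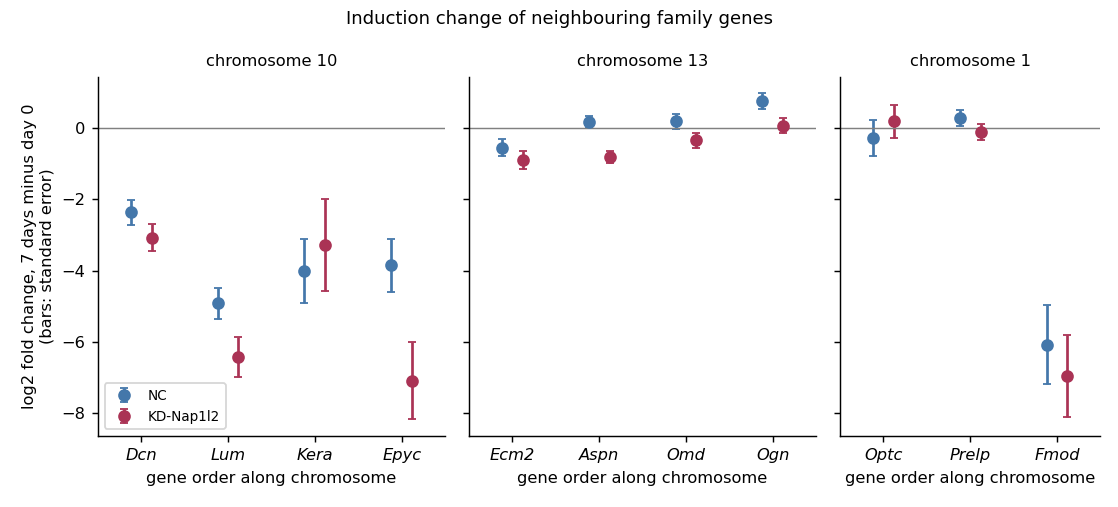
Log2 fold change over 7 days of induction for neighbouring family genes, in their order along each chromosome, in NC cells (blue) and KD-Nap1l2 cells (red); bars are standard errors from edgeR. All points on chromosome 10 lie below −2, those on chromosome 13 lie between −0.89 and 0.75, and on chromosome 1 *Fmod* stands apart from *Prelp* and *Optc*; the values of *Kera*, *Epyc* and *Fmod* rest on 0 to 8 counts per library at day 7.

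The transcript table placed most of each member other than *Podn* on a single RefSeq transcript. NM_007542.5 took 98.6% to 99.1% of *Bgn* FPKM over the 8 libraries, NM_025711.3 took 92.9% to 99% of *Aspn*, NM_012050.2 took 80.7% to 91.1% of *Omd*, and NM_001190451.2 took 86.5% to 100% of *Dcn*. *Fmod*, *Lum*, *Ogn* and *Prelp* had a single transcript in the table. *Podn* was spread over 7 transcripts, of which the most abundant, NM_172874.3, ranged from 0% to 61.5% at a gene level of 0.36 to 7.06 FPKM, so its division among transcripts was not stable between libraries. By the GENCODE annotation, 7 of 2354 exonic bases of *Aspn* overlap *Cenpp* and 350 of 3615 exonic bases of *Prelp* overlap *Gm15851*, both on the other strand. Whether the counting used strand was not given in the sources used here, so reads from these bases cannot be assigned with certainty.

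The other genes of the family were described by their counts. Of 9 listed, 8 were tested, and over induction, averaged over both kinds of cell, 5 fell and 1 rose, with a median log2 fold change of −1.34 beside −0.01 over all genes. In this average 12.7% of all genes were called lower and 12.8% higher. *Epyc*, which encodes the cartilage proteoglycan epiphycan, had 130 and 69 counts in NC, 5 and 8 in NC-7d, 136 and 37 in KD-Nap1l2, and 0 and 1 in KD-Nap1l2-7d. *Kera*, the gene of the corneal proteoglycan keratocan, had 36 and 19 counts in NC, 3 and 0 in NC-7d, 6 and 6 in KD-Nap1l2, and 1 and 0 in KD-Nap1l2-7d. Each induced library held 8 or fewer counts of either gene. *Chadl* (−3.36 ± 0.34 SE, edgeR adjusted p = 0.000634), *Podnl1* (−1.97 ± 0.38 SE, adjusted p = 0.00861) and *Ecm2* (−0.72 ± 0.17 SE, adjusted p = 0.0206) fell as well in the average. *Podnl1* was called in KD-Nap1l2 cells (edgeR adjusted p = 0.0186) but not in NC cells (0.191). *Ecm2* was called in neither alone (0.205 in NC and 0.051 in KD-Nap1l2). *Tsku*, the gene of tsukushi, a secreted BMP inhibitor, rose (1.24 ± 0.17 SE, edgeR adjusted p = 0.00248), from 382 and 656 counts in NC to 1146 and 948 in NC-7d, and from 539 and 634 in KD-Nap1l2 to 1538 and 1452 in KD-Nap1l2-7d. *Nyx* (10.8 and 9.77 estimated counts in NC, 14 and 80.3 in NC-7d) and *Optc* (11.2 and 8.04 in NC, 5.98 and 8.98 in NC-7d) did not pass, and *Chad*, with 1 to 4 counts per library, was not tested. None of the 8 was called in the 2 comparisons of KD-Nap1l2 with NC. The list was chosen with earlier results known, so nothing is read from its counts.

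The collagens with which these proteoglycans are found in the matrix were read from a list of 10 chain genes. In NC cells 2 fell over induction and none rose, where 3.38% of all genes were called lower. In KD-Nap1l2 cells 7 fell and none rose, where 7.36% of all genes were called lower. The list was chosen with earlier results known, so nothing is read from these counts. In NC cells the genes that fell were *Col3a1* (−1.46 ± 0.26 SE, edgeR adjusted p = 0.0167) and *Col6a2* (−0.63 ± 0.15 SE, adjusted p = 0.0436). In KD-Nap1l2 cells the strongest were *Col3a1* (−2.20 ± 0.27 SE, adjusted p = 0.00317), *Col6a2* (−1.48 ± 0.16 SE, adjusted p = 0.00179), *Col5a2* (−1.43 ± 0.19 SE, adjusted p = 0.00442) and *Col1a1*, the gene of the main chain of bone collagen (−1.25 ± 0.27 SE, adjusted p = 0.0223). The list's median was −0.42 in NC cells and −1.13 in KD-Nap1l2 cells, and none of its genes was called for the difference between them.

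Most enzymes that build the sugar chains were not called, 13 of 20 for chondroitin and dermatan sulfate and 5 of 6 for keratan sulfate, in the average over both kinds of cell. Of 20 tested enzymes of chondroitin and dermatan sulfate chains, 5 fell and 2 rose over induction averaged over both kinds of cell, with a median of −0.09. In this average 12.7% of all genes were called lower and 12.8% higher. *Chst7* (−0.93 ± 0.17 SE, edgeR adjusted p = 0.00643) and *Xylt2*, which adds the first sugar of the chain (−0.77 ± 0.13 SE, adjusted p = 0.0051), fell. *Chst15* (1.11 ± 0.24 SE, adjusted p = 0.0136) and *Ust*, a uronyl sulfotransferase (0.72 ± 0.09 SE, adjusted p = 0.00156), rose. Of these 4, *Ust* was called in both kinds of cell alone. *Chst7* and *Xylt2* were called in KD-Nap1l2 only (edgeR adjusted p = 0.369 and 0.0815 in NC). *Chst15* was called in neither (adjusted p = 0.0856 in NC and 0.0676 in KD-Nap1l2). Of 6 tested enzymes of keratan sulfate chains, the kind carried by lumican and fibromodulin, only *Chst2* was called in the average (−0.77 ± 0.16 SE, edgeR adjusted p = 0.0114). *Chst2* was called in neither kind of cell alone (adjusted p = 0.084 in NC and 0.0535 in KD-Nap1l2). The lists were chosen with earlier results known, so nothing is read from these counts.

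Among 14 tested growth factors and receptors that bind members of the family or act through them, 5 rose and 4 fell over induction. These and the next counts are from the average over both kinds of cell, where 12.8% of all genes were called higher and 12.7% lower. *Ctgf* (1.73 ± 0.18 SE, edgeR adjusted p = 0.000634) and *Met* (1.54 ± 0.15 SE, adjusted p = 0.000597), a receptor that decorin binds, rose, whereas *Bmp4* (−1.14 ± 0.13 SE, adjusted p = 0.000933) and *Tlr2*, a receptor for biglycan (−1.02 ± 0.11 SE, adjusted p = 0.000933), fell. Among 12 genes of matrix proteases and the procollagen protease enhancer *Pcolce*, 2 rose and 3 fell. *Mmp9* fell (−4.61 ± 0.41 SE, edgeR adjusted p = 0.000391) in this average. *Mmp13*, a collagenase of bone, was called higher in the average (2.92 ± 0.88 SE, adjusted p = 0.0443) but in neither kind of cell alone (adjusted p = 0.35 in NC and 0.0852 in KD-Nap1l2), with 31 and 17 counts in NC, 164 and 8 in NC-7d, 2 and 20 in KD-Nap1l2, and 208 and 117 in KD-Nap1l2-7d. Of 15 tested proteoglycans outside the family, 7 fell and 2 rose. *Prg4*, which encodes lubricin, rose (6.0 ± 0.56 SE, edgeR adjusted p = 0.000449), as did *Vcan*, the gene of versican (0.84 ± 0.12 SE, adjusted p = 0.00294). *Sdc3* (−1.75 ± 0.32 SE, adjusted p = 0.00699) and *Gpc6* (−1.73 ± 0.12 SE, adjusted p = 0.000135) fell. *Vcan* was called in NC cells (edgeR adjusted p = 0.00734) but not in KD-Nap1l2 cells (0.132). These lists were also chosen with earlier results known, so nothing is read from their counts.

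Patterns across the 8 libraries were compared as log2 CPM among 11271 genes, as a description, since the points share groups and libraries. The genes most like *Bgn* were *Sdf4* (Pearson r = 0.991, Spearman rho = 1), *Gpx8* (r = 0.971, rho = 0.833) and *Aga* (r = 0.953, rho = 0.738). *Fmod* had the largest average change over induction by edgeR with all 8 libraries, but *Lum* had the larger one on both log2 FPKM scales and without NC replicate 1. The genes most like *Fmod* were *Hmgn1* (r = 0.984, rho = 0.905), *Hdac9* (r = 0.981, rho = 0.976) and *Nr3c1*, the glucocorticoid receptor gene (r = 0.98, rho = 0.952). Among the members, *Dcn* and *Fmod* were most alike by both measures (r = 0.947, rho = 0.881). The most opposed pair was *Dcn* and *Ogn* by Pearson r (−0.592) but *Lum* and *Ogn* by Spearman rho (−0.643).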

How the data were processed

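RNA of 8 C3H10T1/2 libraries (4 groups of 2) was prepared and sequenced by BGI. Estimated counts per gene and FPKM per gene and per transcript were deposited by the authors. The submitters' processing notes name GRCm38.p6, BWA, Bowtie2 and RSEM, and their roles and versions are not given in the sources used here. Counts were not whole for 41.1% of genes, 4 members among them. Tables of the authors' own fold changes, p-values and q-values were not used.

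Estimated counts were rounded and fitted with edgeR 4.0.16 (TMM, filterByExpr, quasi-likelihood test) in R 4.3.3, all 8 libraries in 1 model of group means. Genes were called at a Benjamini-Hochberg adjusted p under 0.05 over 13470 genes. A count of 0 allows 3 counts. Alternatives were DESeq2 1.42.0, limma 3.58.1 on log2(FPKM + 1) or log2(FPKM + 0.1), other size factors, count filters (none, or at least 10 in every library), the compared libraries alone, the replicate number as a block and each library left out. The procedure was tested on simulated data.

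The members and the lists were chosen with earlier results of these data known. Besides the members and *Nap1l2*, named genes were at most 4 called genes of each list with the strongest change, all other listed family genes, and the 3 genes most like *Bgn* and *Fmod* among genes averaging 50 or more normalized counts. *Cenpp*, *Gm15851*, *Pcolce*, the named cell type markers and the named pairs of members were chosen after their values or positions were seen. Coordinates are 1-based RefSeq positions. *Ctgf* is the table's older symbol of *Ccn2*.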

Additional observations from a re-analysis of the deposited data

Results flagged for a closer look

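*Ogn* moved in opposite directions in the 2 comparisons of KD-Nap1l2 with NC. Before induction both KD-Nap1l2 libraries lay above both NC libraries (0.14 ± 0.21 SE on the log2 scale), and after 7 days both KD-Nap1l2-7d libraries lay below both NC-7d libraries (−0.55 ± 0.21 SE). The difference between the 2 values was −0.69 ± 0.30 SE, with an unadjusted p of 0.0508 and an edgeR adjusted p of 0.703, so it did not pass over all genes. The groups hold 2 libraries each, and the NC-7d libraries, at 1556 and 1002 CPM, differed from each other more than those of any other group.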

How the results depend on the processing

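The 9 genes and the counts of called genes gave 75 results and 1096 values under alternative settings, of which 982 kept their direction and side of the threshold, or stayed within 1.5 times for a count. No pairing of libraries by replicate number was visible, since the correlations of same-numbered deviations between groups ran from −0.137 to 0.12. Such values cannot show that the libraries were prepared unpaired. With the replicate block 961 genes (against 1106) were called for induction in NC and 4 (against 11) for KD-Nap1l2 against NC before induction, and *Podn* lost its call in KD-Nap1l2 cells (adjusted p = 0.0539), the only member call that changed.

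DESeq2 called 5 members in place of 3 for induction in NC (adding *Ogn*, higher, and *Podn*, lower), and *Ogn* higher on average (adjusted p = 0.0345), 454 genes and 2 members for KD-Nap1l2 against NC before induction, 82 genes and 2 members after it, and 100 genes and 1 member for the difference of inductions. Without a filter on low counts 5 members, *Ogn* and *Podn* among them, were called for induction in NC, 160 genes before induction and 1 gene for the difference. With at least 10 counts in every library *Lum* and *Fmod* were not tested, and 1 member was called for induction in NC, 3 in KD-Nap1l2 and 2 on average, with 4 genes before induction. Before induction, the compared libraries alone gave 0 genes, log2(FPKM + 1) gave 33 and log2(FPKM + 0.1) gave 18.

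Some values that had not passed turned in sign. With log2(FPKM + 1), *Podn* was −0.0911 before induction and 0.0683 for the difference, and *Lum* 0.35 for the difference. With log2(FPKM + 0.1), *Podn* was −0.23 and 0.18. The cause was not tested.

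With each library left out in turn, induction in NC gave 122 to 1490 genes and 1 to 4 members, induction in KD-Nap1l2 305 to 2218 genes and 2 to 5 members, and their average 1684 to 3918 genes. KD-Nap1l2 against NC gave 0 to 562 genes and 0 to 1 members before induction and 0 to 1 genes after it, and the difference of inductions 0 to 19 genes. Fewer libraries leave fewer degrees of freedom. Signs turned for uncalled values only. For induction these were *Omd* in NC (−0.0366 to 0.45), *Bgn* (−0.0377 to 0.16) and *Prelp* (−0.39 to 0.23) in KD-Nap1l2, and *Omd* (−0.19 to 0.0537) and *Prelp* (−0.0558 to 0.25) on average. Before induction they were *Aspn* (−0.32 to 0.0178), *Dcn* (−0.11 to 0.62), *Fmod* (−0.23 to 2.61), *Omd* (−0.13 to 0.35) and *Podn* (−1.67 to 1.09). After induction they were *Dcn* (−0.77 to 0.0881), *Bgn* (−0.0408 to 0.14), *Fmod* (−2.14 to 0.89) and *Podn* (−0.44 to 0.32), and for the difference *Fmod* (−2.90 to 0.31) and *Podn* (−1.19 to 1.57). Depth limits *Fmod* and *Lum* most, with 1 to 9 counts in the KD-Nap1l2-7d libraries.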
